A study of Mus musculus with 4 samples.

Results

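The genes described here are the p53 transcription factor family and a set of its best known target genes: Trp53, Trp63, Trp73, Cdkn1a, Mdm2, Ccng1, Phlda3, Zmat3, Aen and Sesn2. They were chosen by symbol, and all 10 are among the 23420 genes of the deposited expression values. RNA was measured in 4 bulk libraries of pachytene spermatocytes, the meiotic cells in which homologous chromosomes are fully paired. The cells came from testes of wild-type C57BL/6 males aged 23 weeks, were sorted by their DNA content with the dye DyeCycle Violet, and were cultured for 24 h with the vehicle DMSO (Ctrl, 2 libraries) or with 10 µM AZ20 (2 libraries), a small-molecule inhibitor of the DNA damage kinase ATR. Each library was made from 15000 cells. By the methods, each mouse supplied cells to both conditions. Ctrl and AZ20 libraries with the same number were taken as a pair, which the sample titles and the methods do not state. Both groups are sorted cells kept apart from their Sertoli cells in short-term culture, at 34 °C by the labels and at 32 °C by the methods.

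The p53 protein is a sequence-specific activator that is kept low by MDM2, the ubiquitin ligase that targets it for degradation. DNA damage kinases, among them ATM and ATR, phosphorylate p53 and its partners and so release it, and MDM2 is itself a p53 target, which closes a feedback loop. Active p53 raises genes of cell cycle arrest, of which Cdkn1a (p21) is the classic one, and genes of apoptosis, of DNA repair and of protection from oxidative stress. The relatives p63 and p73 bind similar DNA. In the germline p63 is best known for removing damaged oocytes, and p73 for keeping germ cells attached in the seminiferous epithelium.

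The p53 response element is a pair of abutting decamers, and the promoters of several members carry a close match. RefSeq promoter windows (GRCm38.p6, from 250 bases before to 50 after a start site) were found for 8 of the 10 members, 11 windows in all, and not for Trp63 and Zmat3. In each window the best match to the 20 positions of the p53 response element consensus, without a spacer and with the C and G of each decamer required, was sought. The element reads the same on both strands. The sequences below are shown because they are the closest matches among the members, with Mdm2 added as the most highly expressed member. Each is printed 5′ to 3′ on the strand of its gene, with the matched 20 bases in capitals.

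Cdkn1a, chr17:29090908-29090967, + strand: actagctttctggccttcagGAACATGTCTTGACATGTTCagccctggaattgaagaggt
Ccng1, chr11:40755442-40755501, − strand: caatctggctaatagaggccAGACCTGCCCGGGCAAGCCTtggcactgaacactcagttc
Trp73, chr4:154097200-154097259, − strand: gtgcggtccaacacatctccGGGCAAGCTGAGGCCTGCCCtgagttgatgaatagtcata
Trp53, chr11:69580264-69580323, + strand: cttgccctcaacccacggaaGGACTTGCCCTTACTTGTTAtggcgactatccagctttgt
Aen, chr7:78895917-78895976, + strand: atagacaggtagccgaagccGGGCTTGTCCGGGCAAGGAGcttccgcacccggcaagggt
Mdm2, chr10:117710774-117710833, − strand: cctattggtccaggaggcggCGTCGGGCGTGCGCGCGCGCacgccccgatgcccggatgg

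The Cdkn1a and Ccng1 sites matched 19 of 20 positions, which 0.067% of 32851 mouse promoter windows did or bettered. The Cdkn1a site begins 51 bases before the upstream of its 2 start sites, and the Ccng1 site 195 bases before its start. The Trp73 site matched 18 positions (0.326% of windows) and lies 66 bases before an internal start of the gene. The Trp53 and Aen sites matched 17 positions (1.38% of windows). For Mdm2 and Sesn2 the best match was 11 positions, which 61.3% of windows reached, and Phlda3 lay between with 15 positions (12.4%). A match to letters in this window says nothing of binding in these cells, and a site outside the window is not seen. In 30.4% of windows no stretch had these required bases.

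Expression is given in TPM, the share of all transcripts in a library, which is a level per length. Each gene's reads were recovered from the TPM values, and gene-assigned reads came to 14214489 and 16125614 for Ctrl, against 20591327 and 18864487 for AZ20. The sorted cells had the RNA of pachytene spermatocytes: 12 markers of that stage, such as Sycp3 and Pgk2, summed to 11632 to 11910 TPM, although Hist1h1t, a mid-pachytene histone gene, was at 1.52 TPM or less in every library. Markers of somatic cells of the testis were low. Sertoli markers summed to 1.78 to 2.27 TPM with Sox9, Wt1 and Fshr at 0, Leydig markers to 0.866 to 2.31 TPM with 6 of 7 at 0, macrophage markers to 1.02 to 2.39 TPM with 1 of 8 at 0 (C1qa), and peritubular myoid markers to 2.18 to 4.60 TPM with 1 of 5 at 0 (Des). Within these lists the values of Cd14, Lyz2, Cldn11 and Myh11 were higher in both AZ20 libraries than in both Ctrl libraries, each under 1 TPM throughout. The 9 spermatogonial markers summed to 8.26 and 21.2 TPM in Ctrl and 13.5 and 15.0 TPM in AZ20, with Stra8, Sohlh1 and Dmrt1 at 0. Uchl1, which made up most of these sums, was at 7.60 and 20.1 TPM in Ctrl and at 11.2 and 13.8 TPM in AZ20. Its groups overlapped, as did those of Kit and Nanos3. Gfra1 was at 0.154 and 0.376 TPM in Ctrl and at 1.11 and 0.945 TPM in AZ20. Zbtb16 and Sall4 were also higher in both AZ20 libraries, at 0.269 TPM or less. Round spermatid markers summed to 368 and 152 TPM in Ctrl and to 780 and 255 TPM in AZ20, so their sum was higher with AZ20 in both pairs and highest in replicate 1 of each group. All 8 had a higher mean log2 level with AZ20 (median log2 change 0.77, beside 0.07 over all tested genes), with overlapping groups and none with an unadjusted limma p under 0.05. The part of these cells in the members' levels was not tested.

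Most of the p53 set was close to silent in these spermatocytes, with Mdm2 far above the rest. Over the 4 libraries the mean level was 86.2 TPM for Mdm2, 3.46 TPM for Trp53 and 3.37 TPM for Trp63. Sesn2, Cdkn1a, Zmat3, Aen and Ccng1 followed at 0.866, 0.811, 0.784, 0.516 and 0.501 TPM, Trp73 was at 0.134 TPM, and Phlda3 was listed at 0. The ranges of Trp53 and Trp63 over the libraries overlapped, as did those of the 5 genes from Sesn2 to Ccng1 with their neighbours in this order, whereas Mdm2 stood apart from all others and the lowest Trp63 library (2.32 TPM) lay above the highest Sesn2 library (1.37 TPM). Trp73 and its upper neighbour Ccng1 came within counting error of each other, at 0.271 TPM in the highest Trp73 library and 0.273 TPM in the lowest Ccng1 library. Mdm2 made up 86.7% to 90.7% of the summed TPM of the 10 genes in every library.

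**Figure D1:**
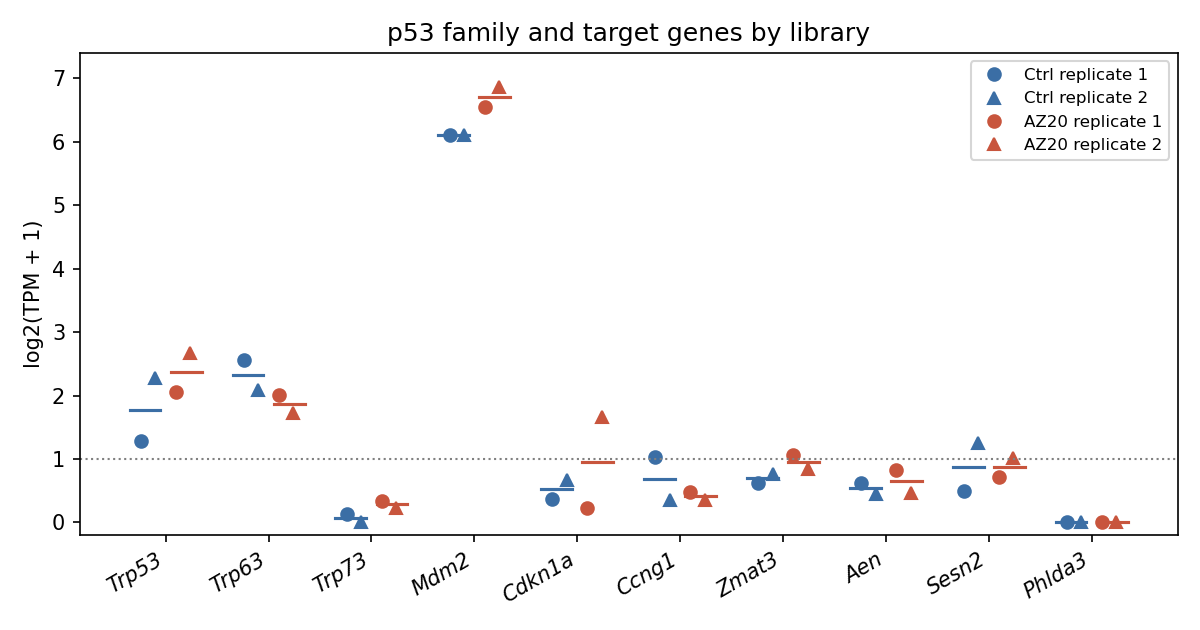
Level of the 10 genes in each library, on the log2(TPM + 1) scale, with Ctrl and AZ20 libraries as points and each group mean as a bar. The dotted line marks 1 TPM. Mdm2 is the only member above 6 TPM in any library, and 6 members are under 2 TPM in all 4.

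No member was called by limma on log2(TPM + 1), fitted here in place of the count test the authors used. The thresholds were those of the study, a change of at least 2-fold and an adjusted p under 0.05 (Benjamini-Hochberg over 10316 genes with a mean above 1 TPM in Ctrl or AZ20). Of all tested genes, 2.28% were called higher with AZ20 and 0.0485% lower. These shares include sex-linked genes, whereas all 10 members lie on autosomes. The study reported most expressed X-linked genes as upregulated by AZ20, and hardly any changed genes on autosomes. The share called among autosomal genes alone was not computed. Only 4 of the 10 members (Trp53, Trp63, Cdkn1a and Mdm2) passed the filter on low values and were tested, Cdkn1a through its AZ20 mean alone. Mdm2 was the member with an unadjusted limma p under 0.05, which 8.03% of tested genes had in the higher direction and 1.13% in the lower. Run with voom on the recovered reads, limma also called 0 members and gave 1 at an unadjusted p under 0.05. In bulk samples, fewer cells of a type and less RNA per cell cannot be told apart. An exact permutation test of 2 libraries against 2 cannot give a two-sided p below 0.333.

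Mdm2 (chr10:117688875-117710758, − strand, GRCm38), which encodes the ligase that restrains p53, was at 68.2 and 68.0 TPM in Ctrl and at 92.9 and 116 TPM in AZ20, from 2084, 2374, 4089 and 4591 reads. Both AZ20 libraries lay above both Ctrl libraries, which 26.4% of tested genes shared, and the Ctrl libraries were almost equal. The mean was 68.1 ± 0.171 TPM in Ctrl and 104 ± 16.0 TPM in AZ20 (SD, n = 2 each), 1.53 times the Ctrl mean. The log2(TPM + 1) change was 0.60 (SE 0.19, 95% interval 0.15 to 1.04, limma adjusted p = 0.341), 0.44 in the first pair and 0.76 in the second. The difference did not hold after adjustment over all genes, and its size was under the 2-fold threshold. The median log2 change of all tested genes was 0.07. Mdm4, the Mdm2 relative that inhibits p53 without degrading it, was at 18.3 and 15.2 TPM in Ctrl and at 21.3 and 16.6 TPM in AZ20, with overlapping groups. Mdm2 stood at 3.73 and 4.47 times the Mdm4 level in Ctrl and at 4.36 and 6.96 times in AZ20.

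Trp53 itself (chr11:69580359-69591873, + strand), the gene for p53, was at 1.43 and 3.85 TPM in Ctrl and at 3.17 and 5.38 TPM in AZ20, from 27, 83, 86 and 132 reads. The groups overlapped, since the higher Ctrl library exceeded the lower AZ20 library. Within each pair AZ20 was the higher, with log2(TPM + 1) changes of 0.78 and 0.40. The change over both was 0.59 (SE 0.41, 95% interval -0.39 to 1.56, limma adjusted p = 0.777), an interval that holds both no change and a rise past 2-fold. It depended on the libraries kept: without Ctrl replicate 1 the change was 0.09, and without Ctrl replicate 2 it was 1.08. Without AZ20 replicate 1 it was 0.89, and without AZ20 replicate 2 it was 0.28. Replicate 1 was the lower library in both groups. Trp53 is regulated largely through the stability of its protein, which RNA does not show.

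Trp63 (chr16:25683763-25892102, + strand), which encodes p63, was at 4.88 and 3.25 TPM in Ctrl and at 3.03 and 2.32 TPM in AZ20, from 298, 227, 267 and 184 reads. Both AZ20 libraries lay below both Ctrl libraries, as they did for 11.7% of tested genes, by a small margin between the middle libraries. The log2(TPM + 1) change was -0.45 (SE 0.30, 95% interval -1.17 to 0.27, limma adjusted p = 0.762), with -0.54 and -0.36 in the pairs. Trp63 was thus the family member whose values lay lower with AZ20, while those of Trp53 lay higher in both pairs. The ratio of Trp53 to Trp63 TPM was 0.294 and 1.19 in Ctrl and 1.04 and 2.33 in AZ20, and the groups overlapped.

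Trp73 (chr4:154056253-154140208, − strand), which encodes p73, yielded 5 and 0 reads in Ctrl but 21 and 12 in AZ20. These reads gave 0.0930 and 0 TPM in Ctrl and 0.271 and 0.172 TPM in AZ20. A count of 0 in Ctrl replicate 2 allows a level of up to 0.0488 TPM at 3 reads. Both AZ20 libraries were above both Ctrl libraries, but Trp73 stayed under the filter and was not tested, and without the filter its limma adjusted p was 0.718. Its exons share 280 bases with the antisense gene Trp73os, and the reads of the pair cannot be told apart where counting does not use strand.

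Cdkn1a (chr17:29090976-29100727, + strand) encodes p21, the inhibitor of cyclin-dependent kinases that executes p53-driven arrest. It was at 0.294 and 0.599 TPM in Ctrl and at 0.170 and 2.18 TPM in AZ20, from 6, 14, 5 and 58 reads. The AZ20 libraries were the lowest and the highest of the 4, so the groups overlapped and AZ20 replicate 2 alone was high. Its 95% counting interval, 1.66 to 2.82 TPM, did not meet those of the other libraries, which together ran from 0.0551 to 1.01 TPM. Counting intervals of this kind leave out the spread between cultures and any copying by PCR. In the first pair AZ20 was 0.578 times Ctrl and in the second 3.64 times. The log2(TPM + 1) change over both was 0.42 (SE 0.52, 95% interval -0.80 to 1.65, limma adjusted p = 0.882). Without AZ20 replicate 1 it was 1.15 (limma adjusted p = 0.435), and without AZ20 replicate 2 the gene fell under the filter. The 19 of 20 match printed above for its promoter stands beside 5 to 58 reads a library, and 273 bases of its exons overlap the opposite-strand gene AC167363.2.

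**Figure D2:**
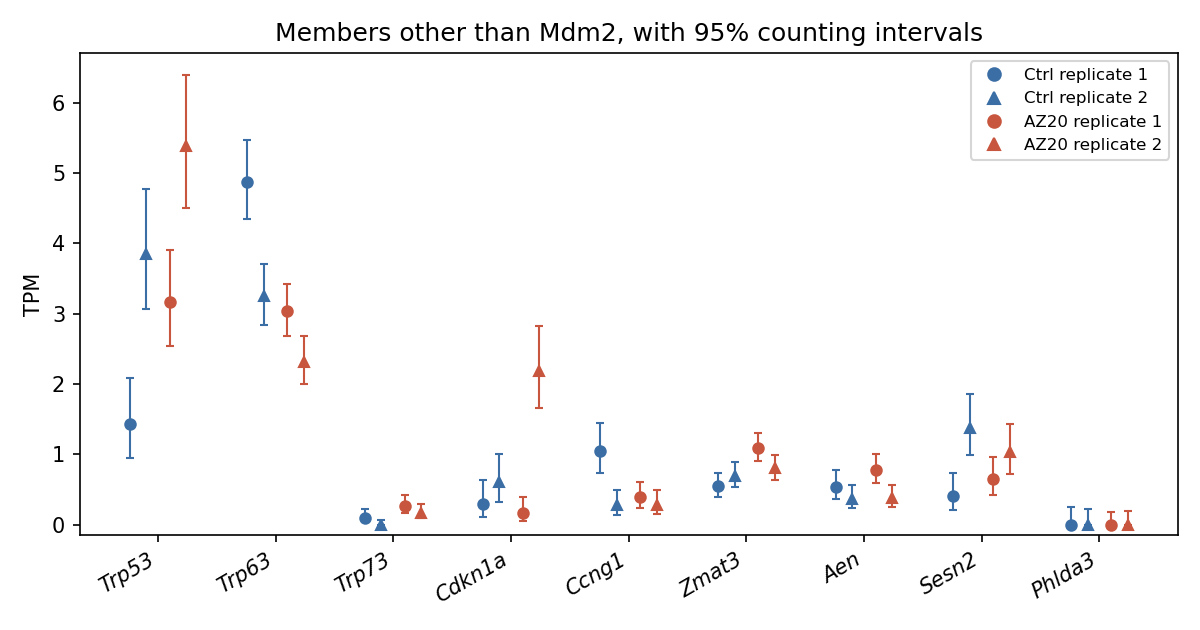
Level in TPM of the 9 members other than Mdm2, with a point for each of the 4 libraries and its 95% Poisson counting interval as a bar. The Cdkn1a interval of AZ20 replicate 2 (1.66 to 2.82 TPM) lies above those of the other 3 libraries, and for every gene shown at least 1 Ctrl interval meets an AZ20 interval.

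The other targets of p53 were under 2 TPM throughout and were not tested with the filter. Zmat3 (chr3:32334792-32366014, − strand), a zinc finger RNA-binding protein that shapes splicing downstream of p53, was at 0.548 and 0.691 TPM in Ctrl and at 1.10 and 0.803 TPM in AZ20. Both AZ20 libraries were the higher, from 124 and 82 reads against 43 and 62, and without the filter the limma adjusted p was 0.852. Aen (chr7:78895854-78911209, + strand), an apoptosis-enhancing nuclease, was at 0.538 and 0.370 TPM in Ctrl and at 0.773 and 0.384 TPM in AZ20. Its groups overlapped, as replicate 1 was the higher library in both.

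Ccng1 (chr11:40748552-40755311, − strand), the cyclin G1 gene, a p53 target that acts with a phosphatase on MDM2, was at 1.05 and 0.273 TPM in Ctrl and at 0.394 and 0.284 TPM in AZ20. Ctrl replicate 1 was the high library, from 37 reads against 11 to 20 in the others, so the groups overlapped. Sesn2 (chr4:132492032-132510501, − strand), a stress protein that restrains mTORC1, was at 0.411 and 1.37 TPM in Ctrl and at 0.648 and 1.03 TPM in AZ20, with the AZ20 libraries inside the Ctrl range. Phlda3 (chr1:135766119-135769136, + strand), which inhibits AKT, had 0 reads in every library. At 3 reads, a count of 0 there allows up to 0.144 to 0.207 TPM. Without the filter the limma adjusted p was 0.866 for Ccng1, 0.926 for Aen and 0.999 for Sesn2.

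**Figure D3:**
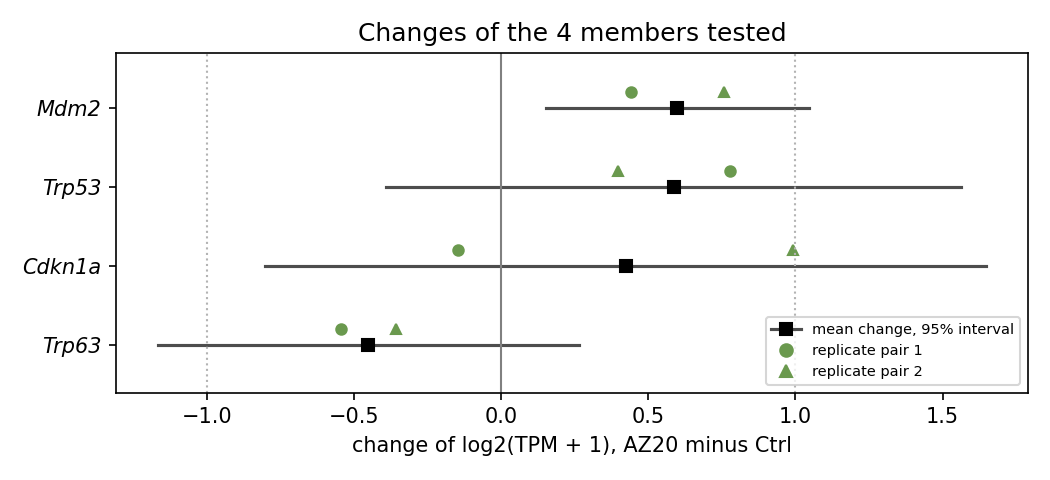
Change of the 4 tested members as a difference of log2(TPM + 1), AZ20 minus Ctrl, with the pairs as green points, the mean as a square with its 95% limma interval, and 2-fold changes as dotted lines. Mdm2 has an interval above 0 (0.15 to 1.04), the intervals of Trp53, Trp63 and Cdkn1a include 0, and the Cdkn1a pairs differ in sign (-0.15 and 0.99).

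Over the 10 members, the groups did not overlap for 4, namely Mdm2, Zmat3 and Trp73 with AZ20 the higher and Trp63 with AZ20 the lower. Over all tested genes the shares were 26.4% with AZ20 the higher and 11.7% with AZ20 the lower, and of the 4 members tested 1 was on each side. Both pairs had the same sign for 6 members. Groups that do not overlap must give this, so only Trp53 and Aen added to those 4. The share of all genes with the same sign in both pairs was not computed. These counts include genes of a few reads, such as Trp73 with 0 to 21 reads a library.

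The genes that surround p53 were compared from 5 lists in the same fit, which did not use the replicate pairs. In it, none of their genes was called in either direction by limma with the study's thresholds. With the replicate pairs as a block, Pmaip1, Cenpa and Ccng2 were called higher, as given below. Over all 10316 tested genes, 6166 were higher and 4150 lower in value with AZ20, which is the background for the tally of each list. Chek2, Perp, Ddb2, Tigar, Cdkn2b, Rbl2 and Ccna2 passed the filter through their AZ20 mean alone, which favours a higher value in the tallies. Trp53i11 passed through its Ctrl mean alone. The background holds genes of both kinds. Of 24 regulators and cofactors of p53, 18 were tested. Their median log2 change was 0.13, with 10 higher and 8 lower in value, and 2 had an unadjusted p under 0.05, both higher, Trp53inp1 and Sirt1. Trp53inp1, a p53-induced protein that promotes p53 phosphorylation, was at 2.28 and 3.61 TPM in Ctrl and at 5.04 and 5.75 TPM in AZ20 (log2 change 0.72, SE 0.29, limma adjusted p = 0.528). Sirt1, the deacetylase that acts on p53, was at 16.5 and 18.8 TPM in Ctrl and at 23.01 and 32.6 TPM in AZ20 (log2 change 0.61, SE 0.24, limma adjusted p = 0.507). AZ20 libraries lay above both Ctrl libraries for 6 of the 18 tested genes, beside 26.4% of all tested genes. The Trp53inp1 change was 0.47 without Ctrl replicate 1, and the Sirt1 change was 0.37 without AZ20 replicate 2.

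Among 39 further p53 targets, 22 were tested, 14 higher and 8 lower in value, with a median log2 change of 0.07, the same as over all tested genes. The apoptosis gene Fas, with Psrc1 and Ptprv, was at 0 in every library. By contrast Rps27l, a ribosomal protein relative, was the most abundant of the list (1011 and 966 TPM in Ctrl, 915 and 1069 TPM in AZ20), named like Mdm4 after its values were seen. Pmaip1 (Noxa), a BH3-only inducer of apoptosis, was at 2.32 and 6.04 TPM in Ctrl and at 9.61 and 8.24 TPM in AZ20. Its log2 change was 1.04 (SE 0.38, limma adjusted p = 0.462), and with the replicate pairs as a block it passed the test (limma adjusted p = 0.0308), but not with voom and the block (limma adjusted p = 0.184). The change was 0.49 without Ctrl replicate 1 and 1.58 without Ctrl replicate 2. Polk, a translesion DNA polymerase, was at 10.1 and 8.53 TPM in Ctrl and at 14.4 TPM in both AZ20 libraries (log2 change 0.58, SE 0.23, limma adjusted p = 0.494). These were the only genes of the list with an unadjusted p under 0.05.

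Arrest can also come from other CDK inhibitors and from the pocket proteins, which bind E2F factors. The list of these genes also holds Lin9, Lin37, Lin52, Lin54, E2f4 and E2f5, which belong to neither class and were all tested. Of its 16 genes 14 were tested, 11 higher and 3 lower in value, with a median log2 change of 0.11. E2f4, the E2F of the repressive DREAM complex, was the only one with an unadjusted p under 0.05, at 8.60 and 11.0 TPM in Ctrl and 15.9 and 20.2 TPM in AZ20 (log2 change 0.82, SE 0.25, limma adjusted p = 0.313). The relative of p21, Cdkn1b (p27), was at 0.127 TPM or less in every library, while the inhibitors Cdkn2c and Cdkn2d were at 54.6 to 83.6 TPM and 69.4 to 125 TPM, with overlapping groups (these 3 genes were picked after their values were seen).

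Cell cycle genes that p21 represses through DREAM gave 18 tested of 20, 11 higher and 7 lower in value, with a median log2 change of 0.08. Cdk1, the mitotic kinase, was at 56.4 and 86.7 TPM in Ctrl and at 110 and 115 TPM in AZ20 (log2 change 0.68, SE 0.24, limma adjusted p = 0.407). Cenpa, the centromeric histone H3 variant, was at 1.56 and 3.76 TPM in Ctrl and at 5.66 and 6.61 TPM in AZ20 (log2 change 1.03, SE 0.36, limma adjusted p = 0.403), and passed the test with the replicate pairs as a block (limma adjusted p = 0.0344), but not with voom and the block (limma adjusted p = 0.383). Without Ctrl replicate 1 the change was 0.37 for Cdk1 and 0.58 for Cenpa, and without Ctrl replicate 2 it was 0.98 and 1.48. None of the list had an unadjusted p under 0.05 in the lower direction.

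Relatives of the members and of Gadd45a, 14 in the list and 9 tested, had a median log2 change of -0.03, with 4 higher and 5 lower in value. Ccng2, the cyclin G2 gene and a relative of Ccng1, was at 2.90 and 4.90 TPM in Ctrl and at 6.81 and 14.8 TPM in AZ20. Its log2 change was 1.21 (SE 0.40, limma adjusted p = 0.377), and with the replicate pairs as a block it passed the test (limma adjusted p = 0.00373), as it did with voom and the block (limma adjusted p = 0.0179). The change was 0.70 without AZ20 replicate 2 and 1.72 without AZ20 replicate 1. Ccng1 itself, described above with its promoter match, had its highest level in a Ctrl library.

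**Figure D4:**
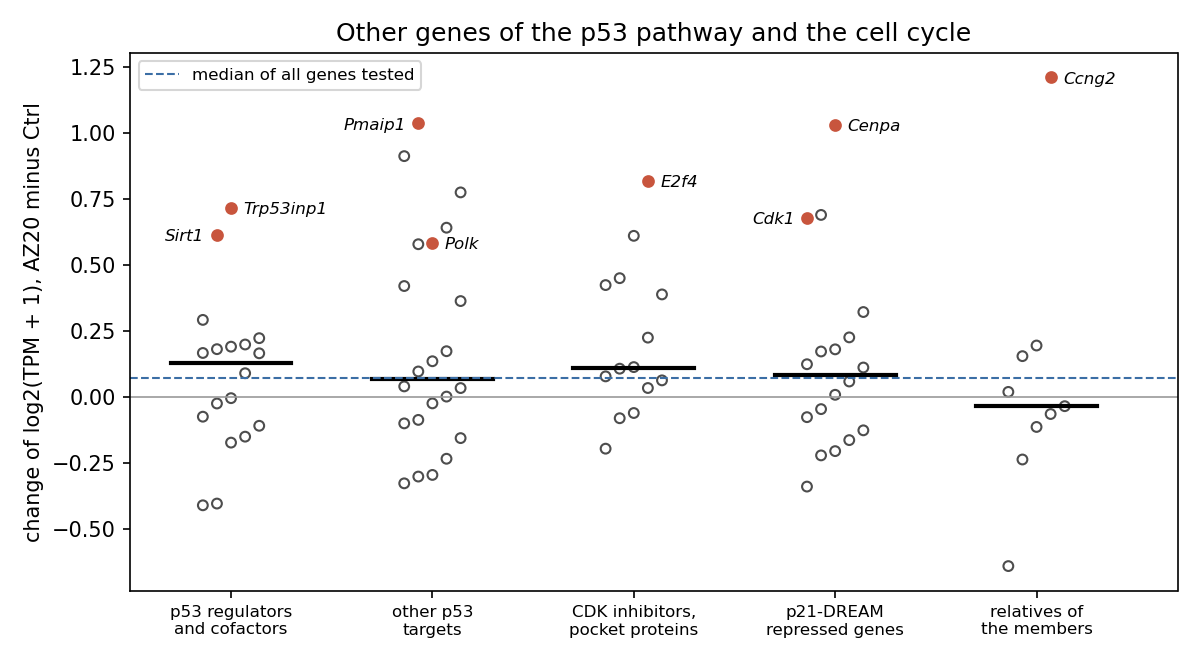
Difference of log2(TPM + 1), AZ20 minus Ctrl, for each tested gene of the 5 lists, with list medians as black bars, the median of all tested genes (0.07) as a dashed line and genes with an unadjusted limma p under 0.05 filled and named. List medians lie between -0.03 and 0.13, and all filled genes are above 0.

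The genes most alike in level and pattern were found by the Euclidean distance of log2(TPM + 1) over the 4 libraries. Closest to Trp53 were Med13, Tomt and Spg20, at distances of 0.292, 0.332 and 0.355. For Cdkn1a the closest was Cdt1, the replication licensing factor (0.195), at 0.317 and 0.435 TPM in Ctrl and 0.251 and 2.05 TPM in AZ20, followed by Ccna2, the gene of the S-phase and mitotic cyclin A2 (0.339), and Stx4a (0.365). Cdt1 and Ccna2 had their highest level in AZ20 replicate 2 as Cdkn1a did, which the choice by closeness to its values brings about. Like Cdkn1a, both passed the filter through their AZ20 mean alone. For Mdm2 the closest were Btbd10, Chic2 and 2700099C18Rik, at 0.249, 0.267 and 0.280. With 4 libraries, closeness describes these values and no more.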

How the data were processed

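The authors trimmed paired 150-bp reads with Trimmomatic (0.39), aligned them with STAR (2.5.4b) to GRCm38, counted unique alignments per gene with featureCounts (2.0.1) and deposited TPM, 1 column per library. Versions are from the submitters' processing notes. From the deposited TPM, reads were recovered as the smallest whole numbers (within 0.001 reads for 16857 of 16857 genes above 0), because all libraries use the same length for a gene. A gene seen in only 1 library always fits, so this share is partly fixed in advance. Of 3815 genes compared, 454 had exactly the annotated length, and the common factor was checked for 12614 genes. A common factor was set from annotated lengths; the Aen reads rest on such a factor, and for Sesn2 it was not checked. In the file, 92 lines without a gene were left out. Strand use in counting is not given in the sources used here.

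Log2(TPM + 1) was fitted with limma (3.58.1, R 4.3.3) with an intensity trend over 10316 genes with a mean above 1 TPM in a group. Fold changes on this scale understate those of low genes. Calls needed a 2-fold change and an adjusted p (Benjamini-Hochberg) under 0.05. Other values used Python 3.11.15. The fit was tested on simulated data without a pair effect and with changes larger than those of the tested members. That test does not bear on changes of the members' size. The methods state that a mouse's cells were split between conditions, and deviations of same-numbered libraries correlated (Pearson 0.229 over 10316 genes). The pair was a block in an alternative, beside other pseudocounts, filters, scalings, voom and leaving out each library. Members and lists were chosen with earlier results of these data known. From each list, up to 4 genes with the largest change at an unadjusted p under 0.05 and the same sign in both pairs were named, and the 3 nearest genes in profile. Trp53rka, Trp53rkb, Pidd1 and Trp53cor1 were not analysed here. Gene coordinates are from GENCODE on GRCm38 and promoters from RefSeq on GRCm38.p6.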

Additional observations from a re-analysis of the deposited data

How the results depend on the processing

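No member was called under any of 13 alternatives, and no result reversed. Some of these could hardly call a member. A filter at a mean above 5 TPM tested Mdm2 alone, and fits without a library had 1 library in a group. The log2 change of Mdm2 ran from 0.44 to 0.75 over all 13 (limma adjusted p 0.159 to 0.697). Over the 12 that tested them it ran from 0.09 to 1.08 for Trp53 (0.431 to 0.984) and from -0.71 to -0.22 for Trp63 (0.471 to 0.950), and over the 11 that tested it from 0.24 to 1.15 for Cdkn1a (0.435 to 0.969). Over all genes, 235 were called higher and 5 lower. The replicate block gave 424 and 23, and 1 gene each among the further p53 targets (Pmaip1), the DREAM-repressed genes (Cenpa) and the relatives (Ccng2), and changed no other call among the members and the genes named from the lists by rule. Genes called lower numbered 1 without a filter, 1 with voom and 3 with voom and the replicate block, where 1 relative (Ccng2) was called higher. Leaving out each library in turn gave 0 to 184 higher and 0 to 1 lower, with the lone library of a group assumed to vary like the other group. Quantile normalization moved the median of all genes by -0.14, and with it Trp63 had a log2 change of -0.71 and an unadjusted limma p under 0.05. The causes were not tested. Apart from Mdm2, the members had 0 to 298 reads a library, which limits the precision of their values.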
